A study of Homo sapiens with 15 samples.

Results

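The rapamycin response was compared between 2 stable cell lines that carry the same YAP-MAML2 fusion, to see which genes answered to rapamycin differently in the line whose condensates rapamycin dissolves. The comparison used 12 of the 15 libraries of the series, chosen by their labels: the response in SPARK-OFF cells less the response in no-mCherry control cells, gene by gene, over the 18391 expressed genes of 61533 identifiers. The remaining 3 libraries, of eGFP control cells, entered the fit to share its estimate of the spread. They also entered the choice of expressed genes and the scaling of the libraries. With the 12 libraries alone, 18236 genes were tested.

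The cells were HEK293, a human embryonic kidney line, and the labels name them HEK293T. SPARK-OFF cells stably express FKBP-mEGFP-YAP-MAML2 with NLS-mCherry-Frb, whereas the no-mCherry cells express the tagged fusion without mCherry. Each line was treated for 5 h, which gave 4 groups of 3 libraries: SPARK-OFF with rapamycin (diffuse YAP-MAML2), SPARK-OFF with DMSO (condensed YAP-MAML2), no-mCherry with rapamycin and no-mCherry with DMSO. One label of the last group names rapamycin, but its title and treatment name DMSO and were followed. Both lines are engineered lines with an introduced fusion, so neither shows the fusion at its native promoter.

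YAP is a coactivator that binds TEAD transcription factors on DNA and is held back by the Hippo kinases. In the fusion its TEAD-binding part is joined to the activation domain of MAML2, a coactivator of Notch. Rapamycin has 2 actions in this system. It joins FKBP to Frb, which brings mCherry to the fusion and dissolves the condensates, and with the cell's own FKBP it inhibits mTORC1, the kinase complex that promotes ribosome production, amino acid uptake and anabolic metabolism. The no-mCherry line received the drug without the mCherry partner, and the difference between the 2 responses is what the lines did not share.

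The 12 libraries held 14720387 to 24797509 counts (median 17929777). The share of counts from mitochondrially encoded transcripts was 2.86 to 3.33% in the SPARK-OFF line and 3.75 to 3.93% in the no-mCherry line. No-mCherry DMSO replicate 3 had the lowest mean correlation with its group (0.982, against up to 0.989) and the lowest TMM factor (0.901). All 11 genes characteristic of HEK293 were above 1 CPM in some group, and their summed level was 1174 to 1186 CPM and 1298 to 1423 CPM in SPARK-OFF cells with rapamycin and with DMSO, and 872 to 948 CPM and 659 to 868 CPM in no-mCherry cells with rapamycin and with DMSO. Of 33 markers of other lineages, 4 were at 0 in all 12 libraries, and the sum of all 33 was 51.0 to 62.4 CPM in SPARK-OFF libraries and 40.6 to 63.3 CPM in no-mCherry libraries. No source used here says that replicates came from separate cultures, and p-values therefore cover only the spread between these libraries, which may be technical. Line and library series go together in the labels, so a batch cannot be told apart from the line, but each response was measured within 1 line.

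The fusion itself was checked first. MAML2 RNA, which counts both the fusion and the endogenous gene, was at 553, 563 and 504 CPM in SPARK-OFF cells with rapamycin and 395, 442 and 409 CPM in SPARK-OFF cells with DMSO. It was at 261, 230 and 238 CPM in no-mCherry cells with rapamycin and 199, 225 and 237 CPM in no-mCherry cells with DMSO. CPM are counts divided by the library total, scaled by TMM and set to a common total. MAML2 was thus higher in every SPARK-OFF library than in every no-mCherry library, and within SPARK-OFF cells the rapamycin libraries did not overlap the DMSO libraries. Its log2 response was 0.38 in SPARK-OFF cells and 0.14 in no-mCherry cells, and the difference of 0.24 (95% interval -0.05 to 0.52) did not pass the test (adjusted p = 0.744, edgeR's quasi-likelihood test). YAP1 was at 276, 280 and 245 CPM in SPARK-OFF cells with rapamycin and 181, 213 and 211 CPM with DMSO, also without overlap. Its log2 response was 0.41 in SPARK-OFF cells (adjusted p = 0.215, same test) and 0.19 in no-mCherry cells (adjusted p = 0.432), whose groups overlapped. YAP1 had a difference of 0.22 (95% interval -0.09 to 0.53, adjusted p = 0.782).

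The responses of the 2 lines differed at 35 genes, 0.19% of the genes tested, which were called as differentially expressed genes (DEGs) at the study's thresholds of P under 0.01, an absolute log2 value of at least 0.58 and FDR under 0.1. The difference was positive, that is higher in SPARK-OFF cells, for 13 DEGs (0.0707% of genes) and negative for 22 (0.12%). At an adjusted p under 0.05 alone, 5 genes were higher (0.0272%) and 13 lower (0.0707%), 18 in all. At an unadjusted p under 0.05 there were 1365 genes, 7.42% of those tested. The DEGs fell into 4 blocks according to which line moved more and in which direction. In 15 the larger response was a negative one in SPARK-OFF cells, and in 2 it was a positive one in SPARK-OFF cells. In 11 the larger response was a negative one in no-mCherry cells, and in 7 it was a positive one in no-mCherry cells. Among the 35, 32 were protein-coding genes and 31 had a mean of at least 5 CPM. The fitted responses of the 2 lines had opposite signs in 26. The genes were picked for a large difference, which favours opposite signs, so this count is no evidence of opposite regulation. In some the smaller response was near 0, as for THBS1 (0.0067 in no-mCherry cells) and PUS1 (0.0307 in SPARK-OFF cells).

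The count of 35 changed with the libraries used. It was 8 to 22 when any 1 of the SPARK-OFF libraries, the no-mCherry rapamycin libraries or no-mCherry DMSO replicates 1 and 2 was left out, and 92 without no-mCherry DMSO replicate 3. The count of 18 at an adjusted p under 0.05 was 2 to 7 without any 1 of the SPARK-OFF libraries, the no-mCherry rapamycin libraries or no-mCherry DMSO replicate 1, and 80 without no-mCherry DMSO replicate 3. CCN1, ANKRD1, KRT4, TNFRSF12A, PBXIP1, YPEL3 and UBALD2 were called in each of the 15 fits without 1 library and in each of 8 other alternative fits. All 35 kept their sign in every one of these fits.

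**Figure D1:**
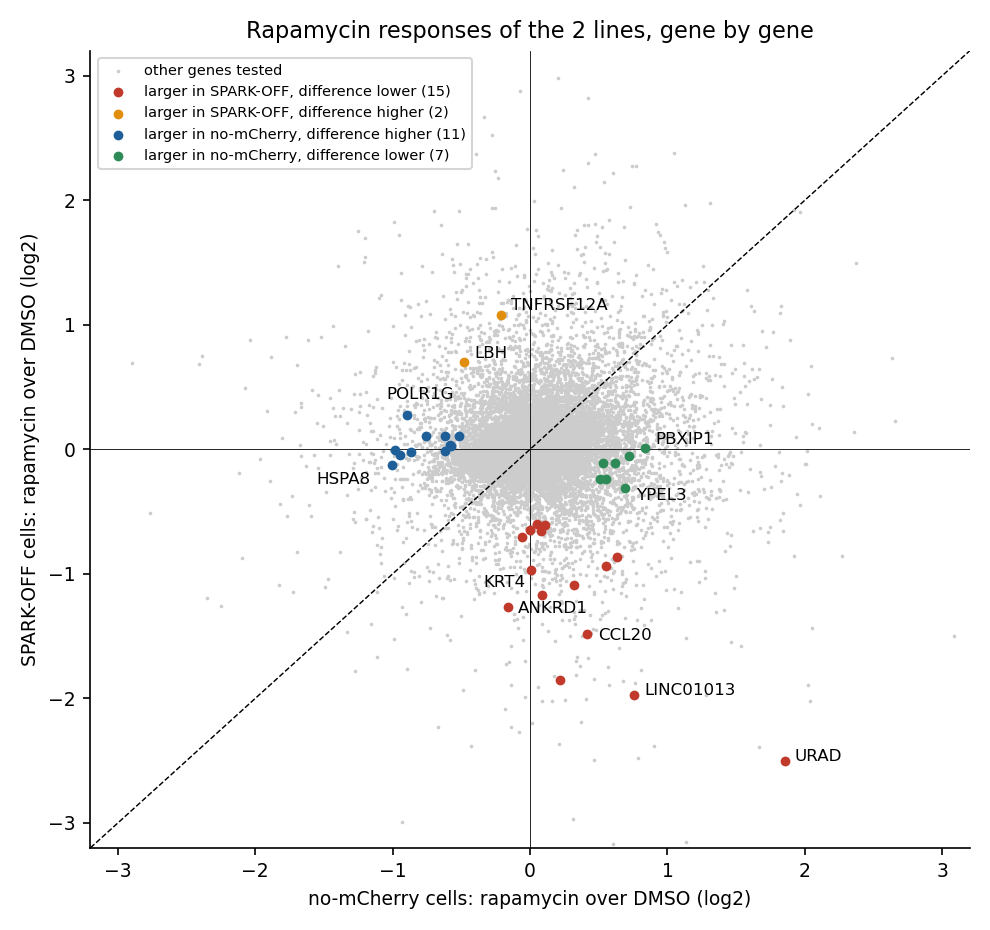
Each point is 1 of the 18391 genes tested, with the log2 fold change of rapamycin over DMSO in no-mCherry cells on the x axis and in SPARK-OFF cells on the y axis; 5 genes lie outside the axes. Coloured points are the 35 DEGs of the difference in their 4 blocks. They were picked for a large difference, so their distance from the dashed line of equal response follows from the choice.

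Measured apart, the lines had 1 DEG in common at these thresholds. SPARK-OFF cells had 28 DEGs between rapamycin and DMSO (0.152% of genes) and no-mCherry cells had 151 (0.821%). For SPARK-OFF cells the study reported a larger number at the same thresholds. LOXL4, a lysyl oxidase-like enzyme of the matrix, was the DEG common to both lines. It is 3.57% of the SPARK-OFF DEGs and 0.662% of the no-mCherry DEGs. It was at 8.71, 10.2 and 8.95 CPM in SPARK-OFF cells with rapamycin and 5.35, 3.04 and 4.50 CPM with DMSO. In no-mCherry cells LOXL4 was at 6.05, 5.97 and 6.73 CPM with rapamycin and 3.16, 3.75 and 2.52 CPM with DMSO. It therefore rose in both lines without overlap, by 1.11 and 0.99 on the log2 scale, and its difference was 0.12 (adjusted p = 0.951). No gene was a DEG in opposite directions.

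Over all genes the log2 responses of the 2 lines had a Pearson correlation of 0.0608, and of 0.252 over the 11497 genes with a mean of at least 5 CPM and 0.311 over the 8194 with at least 20 CPM. These are correlations across genes, which are not independent replicates, and the responses share no library. Error in each response lowers such correlations, so their size does not measure how much of the response was shared. The value over genes of at least 5 CPM was 0.145 without no-mCherry rapamycin replicate 1 and 0.0854 without no-mCherry DMSO replicate 3. The 28 SPARK-OFF DEGs had a median size of 0.91 in their own direction in SPARK-OFF cells and of 0.01 in that direction in no-mCherry cells, where 15 of 28 had the same sign. The 151 no-mCherry DEGs had a median size of 0.08 in SPARK-OFF cells and 0.72 in no-mCherry cells, and 106 of 151 had the same sign in both.

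The promoters of a few leading genes are shown because both actions of rapamycin are known to reach genes through transcription factors with short recognition sequences. RefSeq promoters (GRCh38.p14) matched 27 of the 35 DEGs. CCN1, TNFRSF12A, GFOD1, PUS1, RMI2, SLC7A11, ENSG00000197376 and ENSG00000282057 had no entry. In the 250 bases before the start, read on the gene's strand, capitals mark the core of the TEAD site, GGAATG or its reverse complement CATTCC, in ANKRD1 (chr10:90921088-90921337, minus strand) and CCN2 (chr6:131951373-131951622, minus strand), which stand for the block that was lower in SPARK-OFF cells.
ANKRD1: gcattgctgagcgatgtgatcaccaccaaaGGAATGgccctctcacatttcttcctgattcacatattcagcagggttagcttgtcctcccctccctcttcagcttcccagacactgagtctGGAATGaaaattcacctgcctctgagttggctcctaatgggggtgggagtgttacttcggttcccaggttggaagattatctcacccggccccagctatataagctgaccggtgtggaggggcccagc
CCN2: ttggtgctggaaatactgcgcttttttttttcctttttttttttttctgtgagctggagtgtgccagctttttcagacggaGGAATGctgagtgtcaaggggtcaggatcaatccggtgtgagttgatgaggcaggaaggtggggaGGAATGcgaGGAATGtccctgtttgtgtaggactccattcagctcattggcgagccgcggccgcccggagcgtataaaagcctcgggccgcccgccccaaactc

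The block that fell in no-mCherry cells is shown by POLR1G (chr19:45406394-45406643, plus strand), with the E-box CACGTG in capitals, and HSPA8 (chr11:123062137-123062386, minus strand), with the heat shock element GAANNTTC in capitals, where N is any base. Both motifs read the same on either strand.
POLR1G: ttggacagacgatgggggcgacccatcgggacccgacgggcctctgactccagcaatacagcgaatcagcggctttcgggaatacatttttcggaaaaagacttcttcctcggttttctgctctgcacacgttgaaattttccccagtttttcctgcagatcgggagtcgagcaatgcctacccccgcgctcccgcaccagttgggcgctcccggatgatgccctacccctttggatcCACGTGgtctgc
HSPA8: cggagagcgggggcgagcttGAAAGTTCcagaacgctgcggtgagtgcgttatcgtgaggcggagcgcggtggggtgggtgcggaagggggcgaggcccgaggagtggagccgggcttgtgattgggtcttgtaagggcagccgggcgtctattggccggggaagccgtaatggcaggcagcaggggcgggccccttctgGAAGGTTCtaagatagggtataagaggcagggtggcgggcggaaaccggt

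The TEAD core stood in 5 of the 12 matched promoters of genes with a larger, negative response in SPARK-OFF cells (ANKRD1, CCN2, THBS1, CCL20 and URAD), which is 41.7%, and in 11.9% of all 35116 RefSeq promoters. It stood in 1 of 8 matched promoters of the genes that fell in no-mCherry cells (12.5%) and in 1 of 6 of those that rose there (16.7%). The E-box stood in 3 of the 8 (DDX31, POLR1G and SLC7A5), or 37.5%, in 2 of the 12 with a larger, negative response in SPARK-OFF cells (CYP26A1 and HPSE), or 16.7%, in 0 of the 6 that rose in no-mCherry cells, and in 6.34% of all promoters. The heat shock element was found in 1 of the 8 (HSPA8), or 12.5%, and in 5.78% of all promoters. It was also in 1 of the 12 (ANKRD1), or 8.33%, and in 0 of the 6. Over the 27 matched DEGs the AP-1 letters TGANTCA were in 2 promoters (7.41%, against 6.57% of all), the FOXO letters GTAAACA in 1 (3.7%, against 2.98%) and the CRE letters TGACGTCA in 0 (against 1.65%). Sites of different motifs overlapped at 1 place. Of the 2 genes with a larger, positive response in SPARK-OFF cells, 1 was matched (LBH), and it held 0 of the 6 motifs. A gene counted if any of its listed promoters held the letters. The share of all promoters was taken per promoter, without a filter on expression, so the shares are not like for like. A match of letters is a description of the sequence, and binding was not measured.

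The block with the larger, negative response in SPARK-OFF cells held known YAP targets. ANKRD1, an ankyrin repeat protein of muscle that is widely used as a readout of YAP, was at 669, 768 and 784 CPM in SPARK-OFF cells with rapamycin and 1993, 1576 and 1780 CPM in SPARK-OFF cells with DMSO. In no-mCherry cells it was at 646, 772 and 742 CPM with rapamycin and 800, 740 and 878 CPM with DMSO. The SPARK-OFF groups were far apart, the no-mCherry groups overlapped, and the SPARK-OFF rapamycin libraries stood at the level of the no-mCherry libraries. The log2 response was -1.27 in SPARK-OFF cells and -0.16 in no-mCherry cells, and the difference was -1.10 (standard error 0.162, adjusted p = 0.00581). In bulk RNA, fewer cells that express a gene and less RNA per cell cannot be told apart.

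CCN1 (CYR61), a secreted matricellular protein, was at 902, 891 and 872 CPM in SPARK-OFF cells with rapamycin and 1378, 1445 and 1352 CPM with DMSO. In no-mCherry cells CCN1 was at 481, 479 and 460 CPM with rapamycin and 477, 476 and 469 CPM with DMSO, and these groups overlapped. The difference was -0.65 (standard error 0.107, adjusted p = 0.017), and unlike ANKRD1 the level in SPARK-OFF cells with rapamycin stayed above every no-mCherry library. CCN2 (CTGF), its close relative, was at 911, 898 and 899 CPM in SPARK-OFF cells with rapamycin and 1498, 1556 and 1351 CPM with DMSO. The no-mCherry cells had 542, 545 and 535 CPM of CCN2 with rapamycin and 544, 594 and 554 CPM with DMSO. The SPARK-OFF response less the no-mCherry response was -0.64 (standard error 0.121, adjusted p = 0.0348). CCN2 was called in 7 of the 15 fits without 1 library, where its adjusted p reached at most 0.118.

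THBS1, the matrix glycoprotein thrombospondin 1, was at 36.2, 32.6 and 31.3 CPM in SPARK-OFF cells with rapamycin and 60.4, 72.1 and 62.7 CPM with DMSO. It was at 18.3, 15.9 and 19.5 CPM in no-mCherry cells with rapamycin and 19.0, 19.5 and 14.98 CPM with DMSO, so that only the SPARK-OFF groups separated. The difference was -0.97 (standard error 0.171, adjusted p = 0.0237), and it was called in 13 of the 15 fits without 1 library. KRT4, a keratin of moist stratified epithelia, was at 16.8, 18.3 and 19.6 CPM in SPARK-OFF cells with rapamycin and 46.4, 42.0 and 34.9 CPM with DMSO. No-mCherry cells had 6.89, 8.15 and 6.46 CPM of KRT4 with rapamycin and 6.32, 8.16 and 5.74 CPM with DMSO. The groups of SPARK-OFF cells were apart and those of no-mCherry cells overlapped, with a difference of -1.26 (standard error 0.214, adjusted p = 0.0237).

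Some negative differences had fitted responses of opposite sign in the 2 lines. CCL20, a chemokine that binds the receptor CCR6, was at 1.73, 1.85 and 1.58 CPM in SPARK-OFF cells with rapamycin and 4.92, 4.58 and 4.89 CPM with DMSO, and at 2.44, 2.02 and 3.12 CPM in no-mCherry cells with rapamycin and 2.13, 1.63 and 1.93 CPM with DMSO. Its responses were -1.48 in SPARK-OFF cells and 0.42 in no-mCherry cells, the second of which did not pass the test (adjusted p = 0.49), and the difference was -1.90 (standard error 0.370, adjusted p = 0.048). URAD, an enzyme of uric acid breakdown, had the most negative difference among the DEGs, -4.35 (standard error 0.844, adjusted p = 0.0408), but at levels of 0.0544 to 1.27 CPM and down to 1 count in a library. Neither response of URAD passed on its own, at -2.50 in SPARK-OFF cells (adjusted p = 0.124) and 1.85 in no-mCherry cells (adjusted p = 0.131). CCL20 and URAD were each called in 7 of the 15 fits without 1 library.

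Below an FDR of 0.1 but not of 0.05, the same block held CYP26A1, which breaks down retinoic acid (difference -1.50), ACTBL2, an actin-like protein (-1.50), FSTL3, a secreted binder of activin (-0.74), ADM, the precursor of the vasodilator adrenomedullin (-0.71), and HPSE, the heparan sulfate-cleaving enzyme heparanase (-0.65). FSTL3 was at 71.4 to 79.5 CPM in SPARK-OFF cells with rapamycin and 114 to 122 CPM with DMSO, and at 41.9 to 50.2 CPM and 34.2 to 48.9 CPM in no-mCherry cells with rapamycin and with DMSO. These 5 genes were called in 3 to 5 of the 15 fits without 1 library.

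The block also held noncoding neighbours of CCN2 and CCN1. LINC01013, a long noncoding RNA on chromosome 6, was at 1.85, 1.58 and 1.43 CPM in SPARK-OFF cells with rapamycin and 7.57, 6.13 and 5.21 CPM with DMSO, and at 1.17, 1.22 and 0.821 CPM in no-mCherry cells with rapamycin and 0.206, 0.979 and 0.644 CPM with DMSO. Its difference was -2.73 (standard error 0.520, adjusted p = 0.0354). CCN2 lies within the annotated span of LINC01013 on the other strand, and 278 exon bases of the pair coincide. ENSG00000282057, a long noncoding RNA on the other strand of chromosome 1 from CCN1, with 2510 bases between the annotated spans of the pair, had a difference of -1.41 (standard error 0.291, adjusted p = 0.0646). It shares 383 exon bases with DDAH1, whose own difference was -0.49 (adjusted p = 0.134). The strand setting of the counting is not given in the sources used here, so reads of overlapping genes cannot be told apart. The processed pseudogene ENSG00000197376 on chromosome 12 had a difference of -2.07 (adjusted p = 0.0502). Over all DEGs, exons of 21 of 35 overlapped exons of another gene. The share over all genes tested was not taken, so this count does not set the DEGs apart.

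Only 2 DEGs had a larger, positive response in SPARK-OFF cells. TNFRSF12A (Fn14), the receptor for the cytokine TWEAK, had the smallest p of all genes. It was at 62.2, 62.8 and 63.1 CPM in SPARK-OFF cells with rapamycin and 31.2, 28.4 and 29.2 CPM with DMSO, and at 16.6, 16.05 and 14.6 CPM in no-mCherry cells with rapamycin and 16.4, 16.5 and 21.9 CPM with DMSO. The SPARK-OFF groups did not overlap while the no-mCherry groups did, and the difference was 1.30 (standard error 0.178, adjusted p = 0.00431). LBH, a transcriptional regulator named for its expression in limb bud and heart, was at 8.30, 7.502 and 10.3 CPM and 5.88, 5.30 and 4.89 CPM in SPARK-OFF cells with rapamycin and with DMSO. In no-mCherry cells LBH was at 5.61, 4.10 and 4.49 CPM with rapamycin and 7.08, 6.96 and 5.79 CPM with DMSO, so the groups separated in opposite directions in the 2 lines. Its difference was 1.18 (standard error 0.253, adjusted p = 0.0762), and neither line's response passed on its own (adjusted p = 0.182 in SPARK-OFF cells and 0.204 in no-mCherry cells). LBH was called in 6 of the 15 fits without 1 library.

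**Figure D2:**
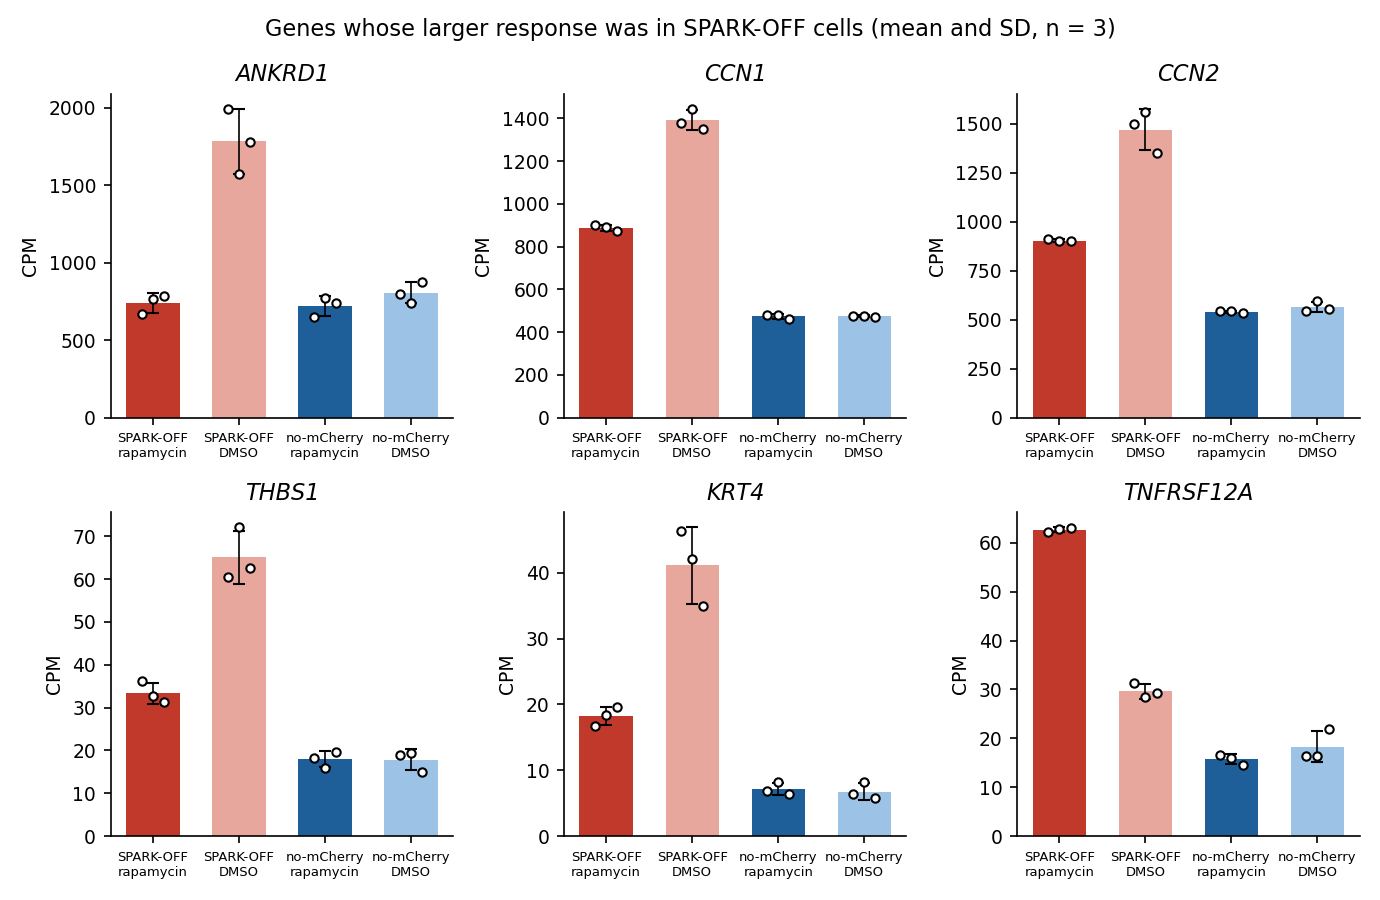
CPM in each library for 6 genes with a larger response in SPARK-OFF cells. Bars are means of 3 libraries, error bars SD and points single libraries, with SPARK-OFF rapamycin, SPARK-OFF DMSO, no-mCherry rapamycin and no-mCherry DMSO from left to right. The SPARK-OFF groups separate in each panel while the no-mCherry groups overlap.

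Most other YAP targets had no difference that passed. Of 24 core YAP targets, 3 had a lower response in SPARK-OFF cells at an adjusted p under 0.05 (ANKRD1, CCN1 and CCN2) and none a higher one, against 13 and 5 of all 18391 genes. The number that passed was 1 to 3 when each library was left out in turn. At an unadjusted p under 0.05, 6 of the 24 were lower and 0 higher, against 682 and 683 of all 18391 genes. The median difference over the 24 was -0.04, against 0.02 over all genes, and its sign changed with the library left out. AMOTL2, a binder of YAP that YAP itself induces, had a difference of -0.44 (adjusted p = 0.274) and IGFBP3, a carrier of insulin-like growth factors, of -1.21 (standard error 0.470, adjusted p = 0.57). IGFBP3 was at 2.61 to 4.29 CPM in SPARK-OFF cells with rapamycin and 4.97 to 6.94 CPM with DMSO, and at 2.33 to 3.56 CPM and 1.64 to 2.61 CPM in no-mCherry cells with rapamycin and with DMSO. TEAD4, a DNA-binding partner of YAP, had a difference of 0.60 (adjusted p = 0.32). Among the fusion and TEAD-VGLL genes and the Hippo feedback genes, 0 of 12 and 0 of 23 passed in the difference, with 2 and 3 at an unadjusted p under 0.05.

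A further 26 genes are those the study labelled in its plot of diffuse against condensed cells. They were picked on the SPARK-OFF response in these libraries, so their direction is not independent evidence. In the difference 1 was higher (TNFRSF12A) and 7 were lower at an adjusted p under 0.05, with a median of -0.87. Their median was -0.79 in SPARK-OFF cells and 0.10 in no-mCherry cells, where 0 of the 26 passed the test. In SPARK-OFF cells 3 of the 26 rose and 11 fell at an adjusted p under 0.05, and the rest did not pass. IGFBP3, which the study names among the genes raised further by condensates, was one that did not pass there (adjusted p = 0.755). Some of the 26 had a response in SPARK-OFF cells that passed without a difference that passed. DUSP4, a phosphatase of MAP kinases, rose by 1.28 in SPARK-OFF cells (adjusted p = 0.00352), with a difference of 1.14 (standard error 0.310, adjusted p = 0.254). SEMA3B, a secreted semaphorin, rose by 1.15 in SPARK-OFF cells (adjusted p = 0.00106), at 19.3, 19.95 and 14.3 CPM with rapamycin and 8.77, 8.95 and 6.17 CPM with DMSO. In no-mCherry cells SEMA3B had 13.2, 11.6 and 10.8 CPM with rapamycin and 10.1, 7.62 and 9.19 CPM with DMSO, a shift of the same sign without overlap, and the difference was 0.74 (standard error 0.235, adjusted p = 0.404). For such genes these libraries do not show that the lines differed.

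**Figure D3:**
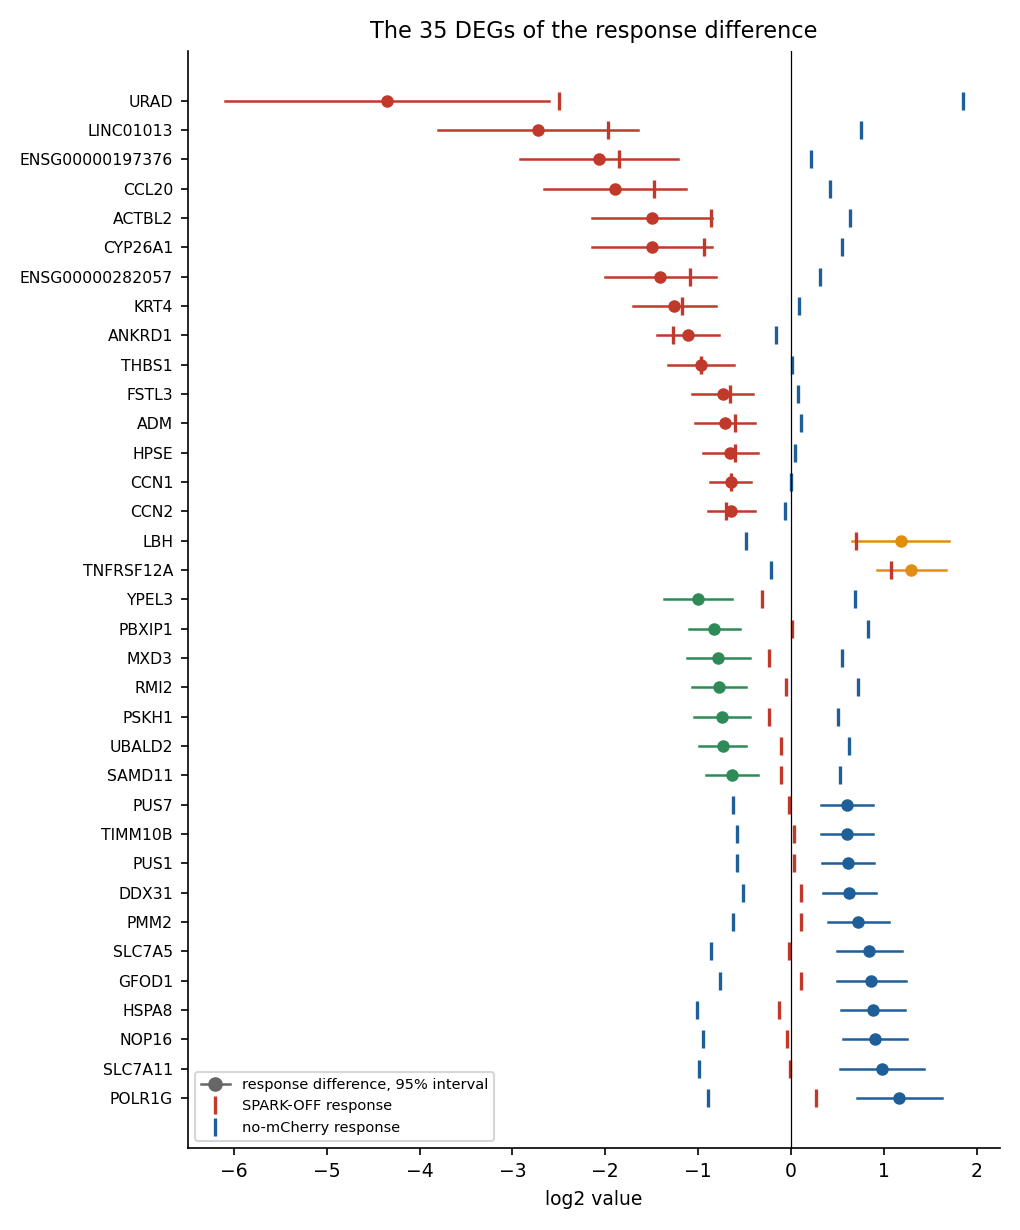
The 35 DEGs of the difference, with the log2 response difference and its 95% interval (dot and line) and the responses of SPARK-OFF cells (red tick) and no-mCherry cells (blue tick). In the upper 17 genes the red tick lies farther from 0, and in the lower 18 the blue tick does.

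The other side of the difference came from no-mCherry cells and held genes of growth. NOP16, a nucleolar protein of large ribosomal subunit assembly, was at 38.3, 36.9 and 40.1 CPM in SPARK-OFF cells with rapamycin and 44.5, 33.3 and 40.8 CPM with DMSO. It was at 17.5, 20.5 and 16.96 CPM in no-mCherry cells with rapamycin and 35.0, 34.7 and 36.3 CPM with DMSO. The groups of SPARK-OFF cells overlapped, and those of no-mCherry cells were far apart. The response was -0.04 in SPARK-OFF cells and -0.95 in no-mCherry cells, with a difference of 0.91 (standard error 0.164, adjusted p = 0.0285).

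POLR1G, a subunit of RNA polymerase I, which makes ribosomal RNA, was at 8.82, 9.02 and 9.27 CPM in SPARK-OFF cells with rapamycin and 8.05, 7.24 and 7.14 CPM with DMSO. It was at 3.06, 3.34 and 2.79 CPM in no-mCherry cells with rapamycin and 5.98, 5.60 and 5.56 CPM with DMSO, and so fell in the second line but not in the first, where the libraries with rapamycin were the higher ones. The difference was 1.17 (standard error 0.221, adjusted p = 0.0348). Of the exon bases of POLR1G, 49.8% are shared with ERCC1 on the other strand. DDX31, a nucleolar RNA helicase, had a difference of 0.63 (adjusted p = 0.0763), and PUS1 and PUS7, which make pseudouridine in RNA, had 0.61 (adjusted p = 0.0889) and 0.60 (adjusted p = 0.0958).

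SLC7A5 (LAT1), the transporter that brings leucine into the cell, was at 172, 157 and 160 CPM in SPARK-OFF cells with rapamycin and 156, 182 and 158 CPM with DMSO. It was at 71.7, 66.8 and 76.2 CPM in no-mCherry cells with rapamycin and 143, 145 and 103 CPM with DMSO, where no library overlapped. The difference was 0.85 (standard error 0.168, adjusted p = 0.048). SLC7A11, the cystine and glutamate exchanger, had a difference of 0.98 (standard error 0.218, adjusted p = 0.0908) and was called in 3 of the 15 fits without 1 library. Its no-mCherry DMSO libraries were at 30.4, 28.4 and 48.2 CPM, the last of them replicate 3.

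HSPA8, the constitutive HSP70 chaperone, was at 2465, 2677 and 2847 CPM in SPARK-OFF cells with rapamycin and 3235, 2547 and 2926 CPM with DMSO. No-mCherry cells had 1348, 1655 and 1662 CPM with rapamycin and 2924, 2745 and 3713 CPM with DMSO, again with replicate 3 the highest. The groups overlapped in SPARK-OFF cells and not in no-mCherry cells. HSPA8 responded by -0.12 in SPARK-OFF cells and fell by 1.01 in no-mCherry cells, with a difference of 0.88 (standard error 0.167, adjusted p = 0.0348). Without no-mCherry DMSO replicate 3 the difference was 0.74. HSPA8 has many processed pseudogenes, so its count is uncertain to the extent that reads were shared. PMM2, an enzyme of mannose activation for glycosylation (difference 0.73, adjusted p = 0.0763), TIMM10B, a chaperone of mitochondrial protein import (0.61, adjusted p = 0.0911), and GFOD1 (0.87, adjusted p = 0.0646) completed the block. In the 15 fits without 1 library, NOP16, POLR1G and HSPA8 were called in 12, SLC7A5 in 6, GFOD1 in 7, DDX31, PUS1 and PMM2 in 2, TIMM10B in 1 and PUS7 in 0.

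**Figure D4:**
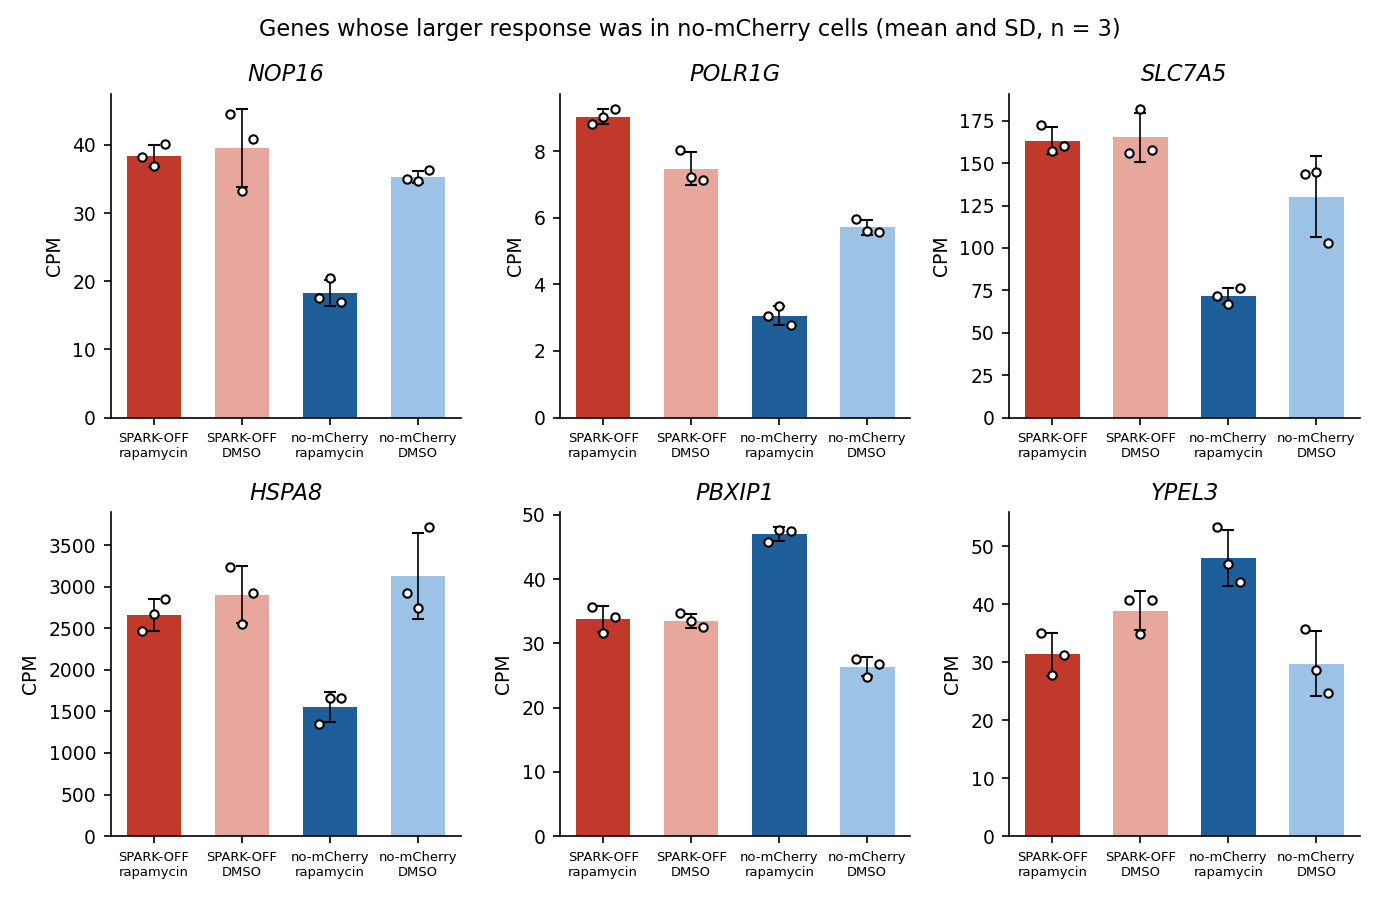
CPM in each library for 6 genes with a larger response in no-mCherry cells, drawn as bars of the mean of 3 libraries with SD and single libraries as points, with SPARK-OFF rapamycin, SPARK-OFF DMSO, no-mCherry rapamycin and no-mCherry DMSO from left to right. The no-mCherry groups separate in each panel, downward with rapamycin for NOP16, POLR1G, SLC7A5 and HSPA8 and upward for PBXIP1 and YPEL3.

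In the last block, genes rose in no-mCherry cells. PBXIP1, a protein that binds PBX homeodomain factors, was at 35.6, 31.6 and 34.1 CPM in SPARK-OFF cells with rapamycin and 34.6, 33.5 and 32.5 CPM with DMSO, which did not separate. It was at 45.7, 47.6 and 47.5 CPM in no-mCherry cells with rapamycin and 27.6, 24.7 and 26.8 CPM with DMSO, which did. The difference was -0.82 (standard error 0.132, adjusted p = 0.016). YPEL3, a growth suppressor of the yippee family, was at 35.1, 27.7 and 31.3 CPM in SPARK-OFF cells with rapamycin and 40.8, 35.0 and 40.8 CPM with DMSO. In no-mCherry cells it was at 53.3, 46.9 and 43.8 CPM with rapamycin and 35.8, 28.7 and 24.7 CPM with DMSO, and the difference was -1.004 (standard error 0.178, adjusted p = 0.0241).

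UBALD2 was at 66.6 to 70.4 CPM in SPARK-OFF cells with rapamycin and 67.3 to 77.3 CPM with DMSO, and at 87.3 to 88.5 CPM and 55.8 to 59.6 CPM in no-mCherry cells with rapamycin and with DMSO. Its difference was -0.73 (standard error 0.123, adjusted p = 0.017). RMI2, a partner of the BLM helicase in the repair of recombining DNA, had a difference of -0.78 (standard error 0.142, adjusted p = 0.0285), and the kinase PSKH1 one of -0.74 (standard error 0.147, adjusted p = 0.0476). MXD3, a MAX partner of the MYC network (-0.78, adjusted p = 0.0646), and SAMD11 (-0.64, adjusted p = 0.0699) had the remaining differences. RMI2 was called in 12 of the 15 fits without 1 library, PSKH1 in 7, MXD3 in 6 and SAMD11 in 5.

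The gene lists show how far this growth side reached in each line. Of 119 ribosome biogenesis genes, 58 fell in no-mCherry cells and 0 in SPARK-OFF cells at an adjusted p under 0.05, where 1.17% of all genes fell in no-mCherry cells (215 genes) and 0.0924% in SPARK-OFF cells (17). Of all genes, 0.451% rose in no-mCherry cells and 0.0381% in SPARK-OFF cells. The median response over the 119 was -0.10 in SPARK-OFF cells and -0.42 in no-mCherry cells, and the median difference was 0.32, against 0.02 over all genes. The difference was positive for 111 of the 119. Single genes rarely reached the threshold: 2 were higher in the difference at an adjusted p under 0.05 (NOP16 and POLR1G), and 59 were higher and 0 lower at an unadjusted p under 0.05.

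Other members showed the same layout with a difference that missed the threshold. DDX21, a nucleolar helicase, was at 609, 574 and 572 CPM in SPARK-OFF cells with rapamycin and 571, 653 and 645 CPM with DMSO, and at 374, 382 and 394 CPM in no-mCherry cells with rapamycin and 572, 564 and 606 CPM with DMSO. Its difference was 0.51 (standard error 0.114, adjusted p = 0.092), under the fold threshold. PAK1IP1 had 0.79 (adjusted p = 0.143), at 60.5 to 66.9 CPM in SPARK-OFF cells with rapamycin and 63.0 to 73.6 CPM with DMSO, and at 32.3 to 44.1 CPM and 66.3 to 91.8 CPM in no-mCherry cells with rapamycin and with DMSO. The summed level of the 119 genes was 16277, 16489 and 16910 CPM in SPARK-OFF cells with rapamycin and 18357, 17064 and 17778 CPM with DMSO. In no-mCherry cells the sum was 12431, 13921 and 13706 CPM with rapamycin and 17010, 16397 and 19104 CPM with DMSO. Both lines were thus lower with rapamycin in the sum, by a wider gap in no-mCherry cells.

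The count of ribosome biogenesis genes that fell in no-mCherry cells was 27, 36 and 34 without no-mCherry rapamycin replicates 1, 2 and 3, and 42 to 57 without any other single library. In SPARK-OFF cells it was 0 in each of these fits. The number higher in the difference, 2 with all libraries, was 0 or 1 without any 1 of the SPARK-OFF libraries, the no-mCherry rapamycin libraries or no-mCherry DMSO replicates 1 and 2, and 9 without no-mCherry DMSO replicate 3. The median difference ranged over 0.27 to 0.34. No set test was made, so the difference between the lines over the list rests on these counts and medians.

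Some other lists of growth genes had falls in no-mCherry cells and none in SPARK-OFF cells. Of 36 genes of RNA polymerase III and tRNA modification, 8 fell in no-mCherry cells and 0 in SPARK-OFF cells, with a median difference of 0.19. Of 47 genes of amino acid transport and ATF4, the factor that induces amino acid supply, 13 fell in no-mCherry cells and 0 in SPARK-OFF cells (median difference 0.23), and SLC7A5 alone passed in the difference. CHAC1, a glutathione-degrading enzyme and ATF4 target, fell by 0.97 in no-mCherry cells and had a difference of 1.16 (adjusted p = 0.268). Without no-mCherry rapamycin replicates 1, 2 and 3 and no-mCherry DMSO replicate 1 the ATF4 list had 7, 6, 6 and 8 falls in no-mCherry cells. The number of this list that passed in the difference was 0 in 12 of the 15 fits without 1 library and 3 without no-mCherry DMSO replicate 3. In no-mCherry cells 0 rose and 1 fell of 31 genes of sterol and fatty acid synthesis. The counts were 1 and 1 of 38 for glycolysis and hypoxia and 1 and 1 of 43 for mTORC1 regulators. In the MYC network 1 rose and 2 fell of 18. Over all genes 0.451% rose and 1.17% fell there. In this order the median differences of the lists were 0.13, -0.03, 0.03 and 0.06.

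Of 38 chaperone and heat shock genes, 13 fell in no-mCherry cells and 0 in SPARK-OFF cells (median difference 0.24). HSPH1, a large HSP70-related exchange factor, was at 266, 256 and 259 CPM in SPARK-OFF cells with rapamycin and 274, 293 and 277 CPM with DMSO, and at 128, 136 and 141 CPM in no-mCherry cells with rapamycin and 200, 209 and 233 CPM with DMSO. Both pairs of groups were apart, and the difference was 0.56 (standard error 0.116, adjusted p = 0.0646), just under the fold threshold. Without no-mCherry rapamycin replicates 1, 2 and 3 and no-mCherry DMSO replicate 1, the falls numbered 4, 7, 6 and 8.

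Other lists had rises in no-mCherry cells. Of 38 FOXO targets and quiescence genes, 7 rose in no-mCherry cells and 0 in SPARK-OFF cells, and PBXIP1 and YPEL3 were lower in the difference. At an adjusted p under 0.05, the number lower in the difference was 0 without SPARK-OFF rapamycin replicate 2, SPARK-OFF rapamycin replicate 3 or no-mCherry rapamycin replicate 2, and 4 without no-mCherry DMSO replicate 3. Their median response was 0.05 in SPARK-OFF cells and 0.23 in no-mCherry cells, with a median difference of -0.23, and the difference was negative for 32 of 38. DYRK1B, a kinase that holds cells in quiescence, was at 12.6, 12.3 and 10.6 CPM in SPARK-OFF cells with rapamycin and 9.11, 8.89 and 9.97 CPM with DMSO, and at 17.6, 17.8 and 15.6 CPM in no-mCherry cells with rapamycin and 9.002, 10.6 and 6.32 CPM with DMSO. It was higher with rapamycin in both lines without overlap, and the difference of -0.63 did not pass (standard error 0.218, adjusted p = 0.475). Of 48 lysosome and autophagy genes, 5 rose in no-mCherry cells (GAA, GALC, NBR1, GPNMB and CTSF) and 0 in SPARK-OFF cells, with a median difference of -0.09. The number that rose was 0 without any 1 of the no-mCherry rapamycin libraries, 1 without SPARK-OFF rapamycin replicate 2, SPARK-OFF DMSO replicate 3 or no-mCherry DMSO replicate 1, and 2 to 5 without any other single library.

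Cytosolic ribosomal protein genes did not go with the ribosome assembly genes. None of 78 passed in either line or in the difference, their median response was -0.10 in SPARK-OFF cells and 0.04 in no-mCherry cells, and 74 of 78 had a negative difference, with a median of -0.16. At an unadjusted p under 0.05, 1 was higher and 7 were lower. This median was -0.06 without SPARK-OFF DMSO replicate 1 and -0.26 without no-mCherry DMSO replicate 3, so single libraries set its size. Mitochondrially encoded mRNAs had a median difference of -0.02 with 0 of 13 at an unadjusted p under 0.05, and 59 cell cycle genes had one of -0.06 with 0 that passed.

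**Figure D5:**
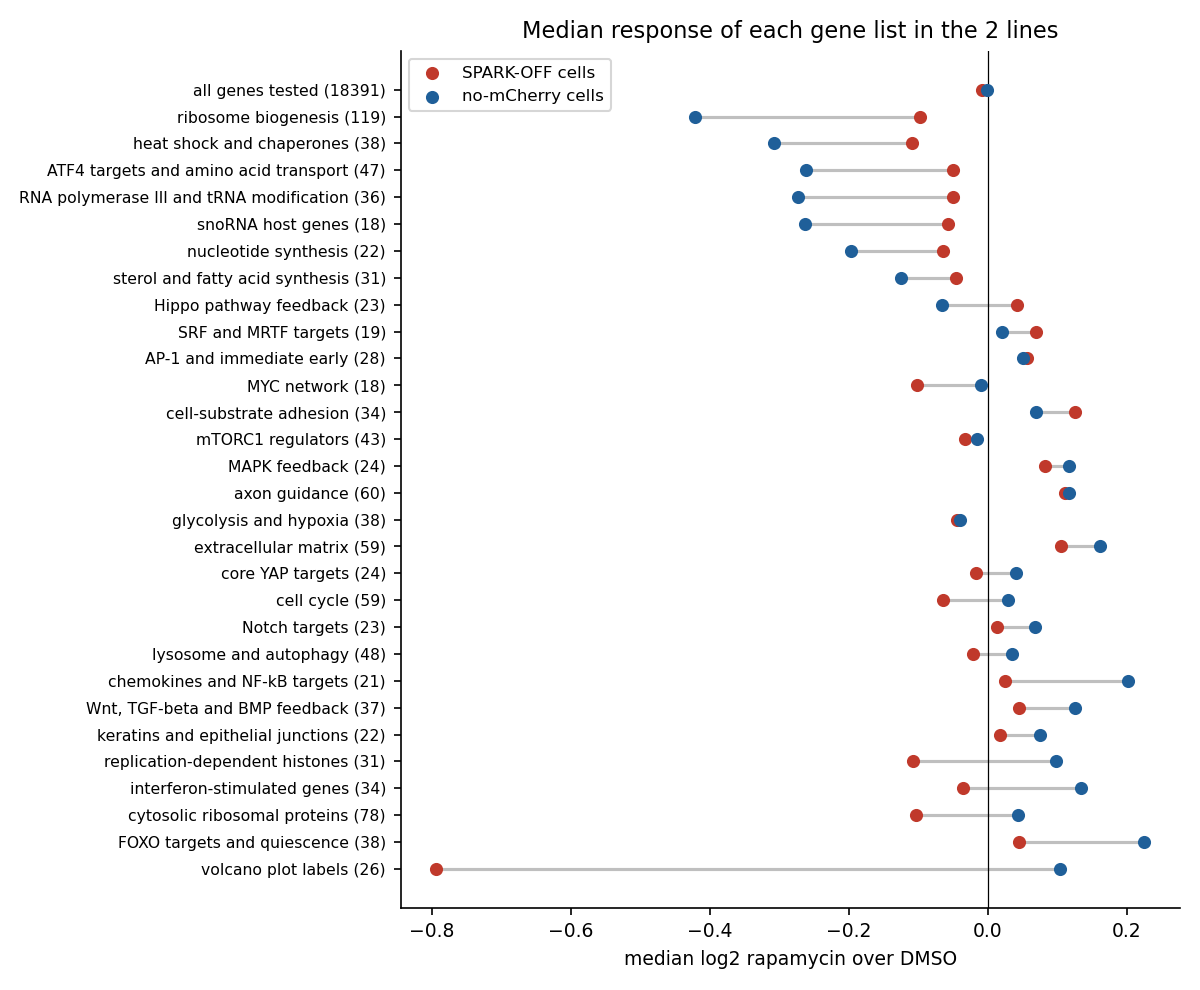
Median log2 response of each list of at least 18 tested genes, with SPARK-OFF cells in red and no-mCherry cells in blue and the number of genes tested in brackets, sorted by the median difference under a top row of all genes. Ribosome biogenesis has medians of -0.10 in SPARK-OFF cells and -0.42 in no-mCherry cells, and the volcano plot labels, picked on the SPARK-OFF response, have -0.79 in SPARK-OFF cells and 0.10 in no-mCherry cells.

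The difference carries the error of 4 groups and each response that of 2. The median standard error of the difference was 0.216, against 0.153 for either response alone. Over genes with a mean under 1 CPM it was 0.852, with 1 DEG among 3218 genes, and over those with a mean over 100 CPM it was 0.140, with 6 DEGs among 2238. HK2, a hexokinase that starts glycolysis, fell by 0.98 in no-mCherry cells (adjusted p = 0.000325) and had a response of -0.24 in SPARK-OFF cells (adjusted p = 0.954), with a difference of 0.75 (standard error 0.180, adjusted p = 0.142). DKK1, a secreted Wnt inhibitor and YAP target, had the reverse layout, at 23.2, 25.1 and 24.6 CPM in SPARK-OFF cells with rapamycin and 42.7, 34.7 and 46.6 CPM with DMSO. In no-mCherry cells DKK1 was at 16.1, 20.8 and 20.95 CPM with rapamycin and 20.3, 16.6 and 21.3 CPM with DMSO, and its difference was -0.75 (standard error 0.189, adjusted p = 0.178). CHAC1, CTSF, DDX21, DKK1, DYRK1B, ENSG00000197376, ENSG00000282057, GAA, GPNMB, HK2, HSPH1, LOXL4, NBR1, PAK1IP1, SAMD11 and URAD fell outside the rule for naming genes and were named after their values were seen.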

How the data were processed

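The authors deposited whole-number counts per gene with no normalization, one column per library, and all columns were used. Per the study's methods, reads were trimmed with fastp, aligned to hg38 with STAR and tested with edgeR. FastQC and HTSeq are named in the submitters' notes, while annotation and strand setting are not given in the sources used. Of 61533 identifiers, 61415 matched GENCODE v44, which gave names and positions.

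Counts were fitted in R 4.3.3 with edgeR 4.0.16 (glmQLFit and glmQLFTest, TMM, filterByExpr over 5 groups, all 15 libraries), with Benjamini-Hochberg adjustment over 18391 genes. The common biological coefficient of variation was 0.111. Alternatives used DESeq2 1.42.0, limma 3.58.1 (voom), other scaling and filters, a replicate block, and fits without each library. The steps were tested on simulated data. Genes were named as those in the study's text or its volcano labels, the 15 largest differences per direction among DEGs with at least 5 CPM in the highest group and a symbol other than those of long noncoding RNAs and pseudogenes, the 10 smallest P, and examples of each of 34 lists; genes outside this rule are marked. Genes and lists were chosen with earlier results of these data known. No set test was made.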

Additional observations from a re-analysis of the deposited data

Results flagged for a closer look

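The rapamycin response differed between the lines, by the interaction test of edgeR's quasi-likelihood fit, at an adjusted p under 0.05 for 18 genes, and for 2 to 80 without 1 library. Relative to no-mCherry cells, the log2 response of SPARK-OFF cells was higher by 1.30 for TNFRSF12A, 1.17 for POLR1G, 0.91 for NOP16, 0.88 for HSPA8 and 0.85 for SLC7A5. The difference was -4.35 for URAD, -2.73 for LINC01013, -1.90 for CCL20, -1.26 for KRT4, -1.10 for ANKRD1, -1.004 for YPEL3 and -0.97 for THBS1. It was -0.82 for PBXIP1, -0.78 for RMI2, -0.74 for PSKH1, -0.73 for UBALD2, -0.65 for CCN1 and -0.64 for CCN2. Groups of 3 libraries are too small for the check on single libraries far from their group.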

How the results depend on the processing

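The 35 DEGs of the response difference became 23 with library totals alone, 68 without a filter on low counts, 81 with DESeq2, 13 at an absolute log2 value of at least 1, and 18 at an adjusted p under 0.05. They ranged over 8 to 92 in fits without 1 library, 8 without SPARK-OFF rapamycin replicate 3 and 92 without no-mCherry DMSO replicate 3. The 28 SPARK-OFF DEGs became 63 without a filter, 55 with DESeq2 and 43 with limma-voom, and 17 to 53 without 1 library. The 151 no-mCherry DEGs stayed within a factor of 1.5 under other scaling, filters and tools, and were 81 to 280 without 1 library; 298 genes had an adjusted p under 0.05 there. The replicate block gave 24 DEGs of the difference, all among the 35 (8 genes at an adjusted p under 0.05, with 0 of the ribosome biogenesis and 0 of the ATF4 list), 26 in SPARK-OFF cells and 126 in no-mCherry cells. Deviations of samples with the same number from their group means had correlations of -0.462 to 0.426. With groups of 3 libraries these cannot decide whether the numbers pair the samples. The median difference of chaperones was 0.18 to 0.29 and the likeness over genes of at least 5 CPM 0.0854 to 0.322 without 1 library. The causes were not tested. No scaling moved the median over all genes by 0.1. Depth limits genes under 1 CPM most.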
